A study of Mus musculus with 31 samples.

Results

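Fabp5, Ghrh, Cck, Inmt, Chil1, Hspb8, Gm47885 and 9030619P08Rik are 8 mouse genes that were chosen by their raw counts per library, because their RNA was almost fully gained or lost between Panc02 cell lines that differ in Cxcl5, Hif1a or Myc. They were found by their symbols in 3 count tables and are 8 of the 55367, 56832 and 56791 symbols that the tables list. The question was whether each gene followed the Cxcl5 genotype in both experiments that hold the knockout. Because the genes were picked for these differences, their values between genotypes and between overexpression lines are given as a description, with no test.

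The study sequenced RNA of Panc02, a mouse pancreatic adenocarcinoma line, in 31 libraries. The first table holds wild-type (WT) spheroids, cell clusters grown in Matrigel, in control medium (Ctrl), in conditioned medium of untreated macrophages (M0-CM) or in conditioned medium of macrophages given IFNγ and LPS (M1-CM), with n = 3 each. The second table, called the 2D/3D experiment here, holds WT and Cxcl5-/- cells as flat (2D) or spheroid (3D) cultures, with n = 3 each. The third, called the rescue experiment, holds 3D cultures of WT (n = 2) and Cxcl5-/- cells (n = 2), and of Cxcl5-/- cells that overexpress a mutant Hif1a (n = 3) or Myc (n = 3). Cxcl5 was targeted by a CRISPR guide delivered in a lentivirus and selected with puromycin, and the overexpression lines received a retroviral vector on top, so every overexpression line also carries the Cxcl5 deletion. Whether a line is 1 clone is not given in the sources used here. The study's methods speak of biological replicates in general and do not say what separates the RNA libraries of a group, so a p-value here measures only the spread between these libraries, which may be technical. For the rescue libraries the cell-line label runs on from Panc03 to Panc12 where the study's methods name Panc02.

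The proteins these genes encode belong to unrelated pathways. Fabp5 carries fatty acids and retinoic acid within the cell, Ghrh and Cck are precursors of secreted peptide hormones, Inmt is an enzyme that methylates indole amines, Chil1 is a secreted chitinase-like glycoprotein without chitinase activity, and Hspb8 is a small heat shock protein that works with BAG3 in the removal of misfolded proteins. Gm47885 is a processed pseudogene, a copy of a messenger RNA put back into the genome, here that of ribosomal protein gene Rpl17. 9030619P08Rik is annotated as a transcribed pseudogene next to the Ly6 genes. That annotation belongs to an entry that held few of the gene's reads here.

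Total counts ranged from 41542533 to 78498230 per library. The targeted genes matched the labels only in part at RNA level. Cxcl5 was lower in Cxcl5-/- than in WT cells of the rescue experiment (38.4 ± 2.51 against 65.9 ± 2.47 CPM, the count scaled to the library size, SD, n = 2 each; edgeR adjusted p = 0.00106), but higher in Cxcl5-/- than in WT spheroids of the 2D/3D experiment (50.6 ± 13.1 against 27.0 ± 2.17, n = 3 each; edgeR adjusted p = 0.000173), which goes against the label there; a CRISPR deletion need not remove the RNA. Myc reached 490 ± 81.6 CPM in the Myc line against 21.1 ± 1.59 in its Cxcl5-/- parent. Hif1a was at 266 ± 27.2 in the Hif1a line, 258 ± 15.4 in the Myc line and 139 ± 7.40 in the parent. In rescue WT Hif1a was at 314 ± 14.4 CPM (n = 2), so the mean of the Hif1a line did not exceed WT. As a measure of the counts that a silent gene received, 1093 olfactory receptor genes were used: the count that 95% of them did not exceed was 42.4 to 45 in the rescue WT libraries, 7 to 8 in rescue Cxcl5-/-, 11 to 17 in WT 3D and at most 1 in 2D. Of the 7 epithelial markers, Epcam and Cdh1 were at 0 in many libraries but keratins were abundant, and the list summed to between 217 and 1096 CPM, beside 4376 to 13904 for the 6 mesenchymal markers. The epithelial sum was lower in Cxcl5-/- spheroids (217 to 236 CPM against 852 to 1096 in WT 3D, 1 marker called higher and 3 lower of 5 tested; 287 to 302 against 856 to 902 in the rescue experiment, 0 higher and 3 lower of 6). The sum of the 6 fibroblast markers was higher, at 396 to 453 CPM in Cxcl5-/- 3D against 156 to 169 in WT 3D, which rested on Pdgfra and Pdgfrb, while Dcn, Lum and Col1a2 were lower there. In the rescue experiment the sum was 458 to 466 against at most 81.3, with 5 of 6 higher and 0 lower. The 7 macrophage markers summed to at most 76.7 CPM in any library, and to 48.7 to 49.3 in Cxcl5-/- 2D against at most 32.4 in WT 2D, with Itgam, Adgre1 and Ptprc at 0 in every library of 2D. Endothelial (0 to 3.50 CPM) and islet or neuroendocrine lists (0 to 1.89 CPM) were near 0. The part of these differences in the values below was not tested, and in bulk RNA fewer cells of a type and less RNA per cell cannot be told apart.

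Fabp5 was the gene whose loss followed the Cxcl5 genotype in every comparison. In 2D culture it had 306, 305 and 373 counts in WT cells and 0 in each of the 3 Cxcl5-/- libraries. In 3D it had 800, 550 and 788 counts in WT spheroids and 0 in each of the 3 Cxcl5-/- libraries. Rescue WT libraries had 59 and 59 counts, which stood against 0 and 0 in Cxcl5-/-. No library of Cxcl5-/- cells without an added gene held a read for this gene, and all WT libraries did. Against a floor of 3 counts per library, the level in Cxcl5-/- was at least 111-fold lower in 2D, at least 296-fold lower in 3D and at least 21.0-fold lower in the rescue experiment. WT cells of the rescue experiment made far less of it than WT spheroids of the 2D/3D experiment (1.29 ± 0.0135 CPM, n = 2, and 14.3 ± 1.35 CPM, n = 3, in tables that were scaled separately), and their 59 counts lay not far above the 42.4 to 45 counts of a silent gene in those libraries. In WT cells the level rose from 5.15 ± 0.753 CPM in 2D to 14.3 ± 1.35 in 3D, a log2 fold change of 1.47 (SE 0.172).

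Neither overexpression restored Fabp5. The Hif1a line had 0, 17 and 0 counts and the Myc line 7, 0 and 5, in each case at or near the level of silent genes in those libraries (11 to 16 and 11 to 15 counts). The gene lies on chromosome 3 (GRCm38 chr3:10012548-10016607, plus strand), and no other annotated gene overlaps it.

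Fabp5 has 5 near copies elsewhere in the genome, which bears on how its reads were assigned. The closest, Gm6166 on chromosome 9, is 98.3% identical over 409 bases. A stretch of the Fabp5 transcript (bases 204 to 353) and its counterpart in Gm6166 (GRCm38 chr9:57484074-57484223) are shown because they show how little separates the pair, with capitals at the 2 bases that differ:
Fabp5: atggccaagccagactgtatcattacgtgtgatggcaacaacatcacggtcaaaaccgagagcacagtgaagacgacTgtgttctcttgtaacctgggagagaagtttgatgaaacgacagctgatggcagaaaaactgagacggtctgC
Gm6166: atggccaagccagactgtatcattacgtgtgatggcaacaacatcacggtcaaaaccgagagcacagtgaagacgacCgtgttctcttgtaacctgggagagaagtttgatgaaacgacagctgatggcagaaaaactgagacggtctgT
None of the 5 copies had enough counts to be tested, and Gm6166 never passed 11 counts in a library. Gm6166 was at 0 in every Cxcl5-/- library without an added gene and had 1 to 7 counts in WT 2D, 3 to 7 in WT 3D and 3 in each rescue WT library, so the absent Fabp5 reads did not appear at this copy.

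Ghrh was present in WT spheroids of both experiments with the knockout and absent in 2D, but the WT spheroids of the conditioned-media table mostly lacked it (0 in all 3 Ctrl libraries, 39, 0 and 17 counts with M0-CM and 2, 0 and 0 with M1-CM). All 6 libraries of 2D culture were at 0. In 3D, WT spheroids had 161, 154 and 204 counts, against 0 in each of the 3 Cxcl5-/- libraries. Rescue WT had 105 and 131 counts and rescue Cxcl5-/- 2 and 0. The groups did not overlap in either 3D experiment, and the WT level was close in both (3.49 ± 0.333 CPM, n = 3, and 2.58 ± 0.375, n = 2). The Cxcl5-/- level was at least 72.2-fold lower in the 2D/3D experiment and 124-fold lower in the rescue experiment (95% interval 34.5 to 1046, from counting error only). Within WT, 3D culture stood at least 73.5-fold above 2D.

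Ghrh came back in part in the Hif1a line. The Hif1a libraries had 24, 12 and 34 counts, and all lay above the Cxcl5-/- parent, a 20.8-fold difference (95% counting interval 5.56 to 176), although the lowest lay within the 11 to 16 counts of silent genes. The mean of 0.431 ± 0.205 CPM stayed below every WT library. The Myc line had 0, 0 and 5 counts, which overlapped the parent.

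Cck behaved differently from Fabp5 and Ghrh, since the Hif1a line was the group where it was high. The Hif1a libraries had 1919, 7903 and 2654 counts (74.5 ± 55.2 CPM). The Cxcl5-/- parent was at 0 in 2 of 2 libraries and the Myc line at 0 in 3 of 3. The Hif1a line was at least 1211-fold above the parent. The spread among the Hif1a libraries was wide, with 1 library holding more than the others together.

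For the Cxcl5 genotype the values of Cck were low. WT spheroids had 58, 0 and 100 counts and Cxcl5-/- spheroids 0 in all 3 libraries, so that the groups overlapped through the WT library at 0. Rescue WT had 12 and 21 counts, under the 42.4 to 45 counts of silent genes there, and Cxcl5-/- had 0 and 0. All 6 libraries in 2D were at 0. The loss of Cck with Cxcl5 thus stood within the level of silent genes in 1 experiment and overlapped in the other.

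The 250 bases upstream of the transcription start are shown for Cck, Ghrh and Inmt (RefSeq, GRCm38.p6, minus strand for all). These are the members whose windows held one of the motifs searched. Both strands were searched for CACGTG, the E-box bound by Myc and by other factors, for ACGTG and GCGTG, core letters of the hypoxia response element bound by HIF1 (every CACGTG also holds ACGTG), and for TATAAA, the TATA box. Capitals mark the matches. The first Ghrh window precedes the distal start and the second the proximal start, and which start these cells used was not examined:
Cck, chr9:121495695-121495944: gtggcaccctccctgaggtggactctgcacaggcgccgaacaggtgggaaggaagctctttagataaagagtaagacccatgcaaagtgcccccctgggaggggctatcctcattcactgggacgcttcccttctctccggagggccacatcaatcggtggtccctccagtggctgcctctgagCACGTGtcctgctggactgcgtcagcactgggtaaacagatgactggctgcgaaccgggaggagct
Ghrh, chr2:157346656-157346905: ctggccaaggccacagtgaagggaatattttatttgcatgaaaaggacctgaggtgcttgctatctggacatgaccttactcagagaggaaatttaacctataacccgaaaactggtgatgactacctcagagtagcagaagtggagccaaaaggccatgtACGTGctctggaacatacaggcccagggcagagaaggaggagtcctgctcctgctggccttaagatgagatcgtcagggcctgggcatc
Ghrh, chr2:157337427-157337676: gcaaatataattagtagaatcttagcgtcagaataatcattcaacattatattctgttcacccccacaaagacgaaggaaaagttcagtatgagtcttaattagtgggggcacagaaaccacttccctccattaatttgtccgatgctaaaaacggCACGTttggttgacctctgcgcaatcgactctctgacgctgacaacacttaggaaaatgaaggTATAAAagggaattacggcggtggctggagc
Inmt, chr6:55174991-55175240: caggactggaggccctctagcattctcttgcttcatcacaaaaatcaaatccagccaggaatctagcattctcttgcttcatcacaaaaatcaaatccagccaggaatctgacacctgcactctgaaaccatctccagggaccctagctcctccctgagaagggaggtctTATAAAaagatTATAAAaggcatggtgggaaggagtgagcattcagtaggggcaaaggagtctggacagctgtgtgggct
The Cck window held CACGTG at position -66 from the start, both Ghrh windows held ACGTG (at -89, and at -94 on the reverse strand), and the second also held TATAAA at -31. The Inmt window held TATAAA at -80 and at -69. Windows from 250 bases before to 50 after the start at Chil1 and Hspb8 held none of the 4 motifs. Of all 32851 promoters in the RefSeq table, 7.15% held CACGTG, 19.6% ACGTG, 32.4% GCGTG and 13.6% TATAAA in windows of that length, so these letters are common. The table gave windows for 5 of the 8 genes. A match is a description of the letters, not of binding.

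Inmt was high in Cxcl5-/- cells in every comparison, and highest with Myc. In 2D, WT had 4, 0 and 0 counts and Cxcl5-/- 121, 118 and 159. In 3D, WT was at 0 in all 3 libraries and Cxcl5-/- had 1883, 1472 and 1682. In the rescue experiment WT had 19 and 6 counts, under the level of silent genes there, and Cxcl5-/- 166 and 117. The groups were apart in all comparisons, but the size varied widely. The fold was 79.7 in 2D (95% counting interval 38.3 to 365), at least 441 in 3D and 10.6 in the rescue experiment (log2 fold change 3.40, SE 0.708). Cxcl5-/- spheroids were at 27.0 ± 2.37 CPM (n = 3) in the 2D/3D experiment and at 2.91 ± 0.755 (n = 2) in the rescue experiment, in separately scaled tables, so the gained level of the same label differed between experiments.

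The Myc line had 2978, 2490 and 2586 counts of Inmt, 18.6-fold above its parent (log2 fold change 4.22, SE 0.503). The Hif1a line had 27, 161 and 134 counts and overlapped the parent (log2 fold change −0.59, SE 0.473). Within Cxcl5-/- cells, 3D culture exceeded 2D by 13.2-fold (log2 fold change 3.72, SE 0.279).

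Chil1 was gained mainly in Cxcl5-/- spheroids of the 2D/3D experiment. It was at 0 in all 6 WT libraries of that table. In 2D the Cxcl5-/- libraries had 5, 17 and 6 counts, and in 3D they had 1523, 609 and 1291. The 3D level of 18.1 ± 6.88 CPM was 123-fold that in 2D (log2 fold change 6.95, SE 0.488) and at least 296-fold that in WT spheroids. The rescue experiment gave the same direction at a much lower level, with 6 and 11 counts in WT, under the level of silent genes there, and 39 and 44 in Cxcl5-/-, a 4.58-fold difference (log2 fold change 2.18, SE 0.524). The Hif1a line (37, 72 and 61 counts) and the Myc line (68, 75 and 47) lay near the parent, with log2 fold changes of 0.27 (SE 0.422) and 0.60 (SE 0.424).

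Hspb8 was also higher in Cxcl5-/- cells in every comparison of genotypes, but WT cells were not always silent. WT spheroids of the conditioned-media table had from 6 to 396 counts. In 2D, WT had 0, 5 and 0 counts and Cxcl5-/- 477, 343 and 380, a 256-fold difference (95% counting interval 102 to 736). In 3D, WT had 19, 16 and 15 counts, close to the 11 to 17 of silent genes, and Cxcl5-/- had 374, 259 and 379, a log2 fold change of 3.99 (SE 0.363). In the rescue experiment WT had 82 and 115 counts and Cxcl5-/- 163 and 172. The last pair did not overlap but differed by only 1.60-fold (log2 fold change 0.67, SE 0.386), and the WT counts stood above the silent genes. The gain of this gene, near-complete in 2D, was thus a modest difference in the rescue lines.

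Hspb8 moved in opposite directions in the 2 overexpression lines. The Myc line had 661, 557 and 752 counts, above every parent library, with a log2 fold change of 1.93 (SE 0.359). The Hif1a line had 33, 74 and 118 counts, below every parent library, with a log2 fold change of −1.33 (SE 0.35).

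Gm47885 lies on chromosome 14 (GRCm38 chr14:37023959-37024534, minus strand) and is 93.9% identical to the Rpl17 transcript over 578 bases. Bases 123 to 272 of the pseudogene (chr14:37024263-37024412) are shown because reads can be assigned to it only by such differences, with capitals at the 13 bases at which it differs from Rpl17:
Gm47885: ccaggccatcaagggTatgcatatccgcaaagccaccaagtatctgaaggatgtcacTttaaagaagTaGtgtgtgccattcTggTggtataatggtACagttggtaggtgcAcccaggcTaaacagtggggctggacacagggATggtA
In 2D, WT had 3, 0 and 1 counts and Cxcl5-/- 175, 179 and 178. In 3D, WT had 3, 0 and 0 and Cxcl5-/- 126, 109 and 96. Rescue WT had 3 and 4 and rescue Cxcl5-/- 104 and 95. This was the most even gain of the group, at 2.74 ± 0.143, 1.78 ± 0.277 and 2.04 ± 0.162 CPM in Cxcl5-/- cells. The folds were 115 (95% counting interval 51.3 to 487), 91.9 (29.8 to 428) and 26.7 (12.7 to 67.1). The Hif1a line had 18, 55 and 38 counts, 3.06-fold below the parent (log2 fold change −1.60, SE 0.34). The Myc line had 337, 336 and 314, which was 3.26-fold above it (log2 fold change 1.70, SE 0.341).

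9030619P08Rik was gained in Cxcl5-/- spheroids and was absent from both overexpression lines. Most of its reads were at the later of its 2 entries, ENSMUSG00000121494, to which the values refer. Both genotypes were at 0 in 2D. In 3D, WT was at 0 in all 3 libraries and Cxcl5-/- had 408, 204 and 324 counts, at least an 81.3-fold difference. In the rescue experiment WT had 13 and 4 counts, under the level of silent genes there, and Cxcl5-/- 1332 and 1542, a 158-fold difference (log2 fold change 7.29, SE 0.424). The Hif1a and Myc lines had 0 counts in 6 of 6 libraries, at least 534-fold and at least 487-fold below the parent. The earlier entry, ENSMUSG00000053168, had at most 17 counts, all of them in Cxcl5-/- cells. Only this earlier entry had a position in the annotation used (chr15:75427606-75431829, minus strand).

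**Figure D1:**
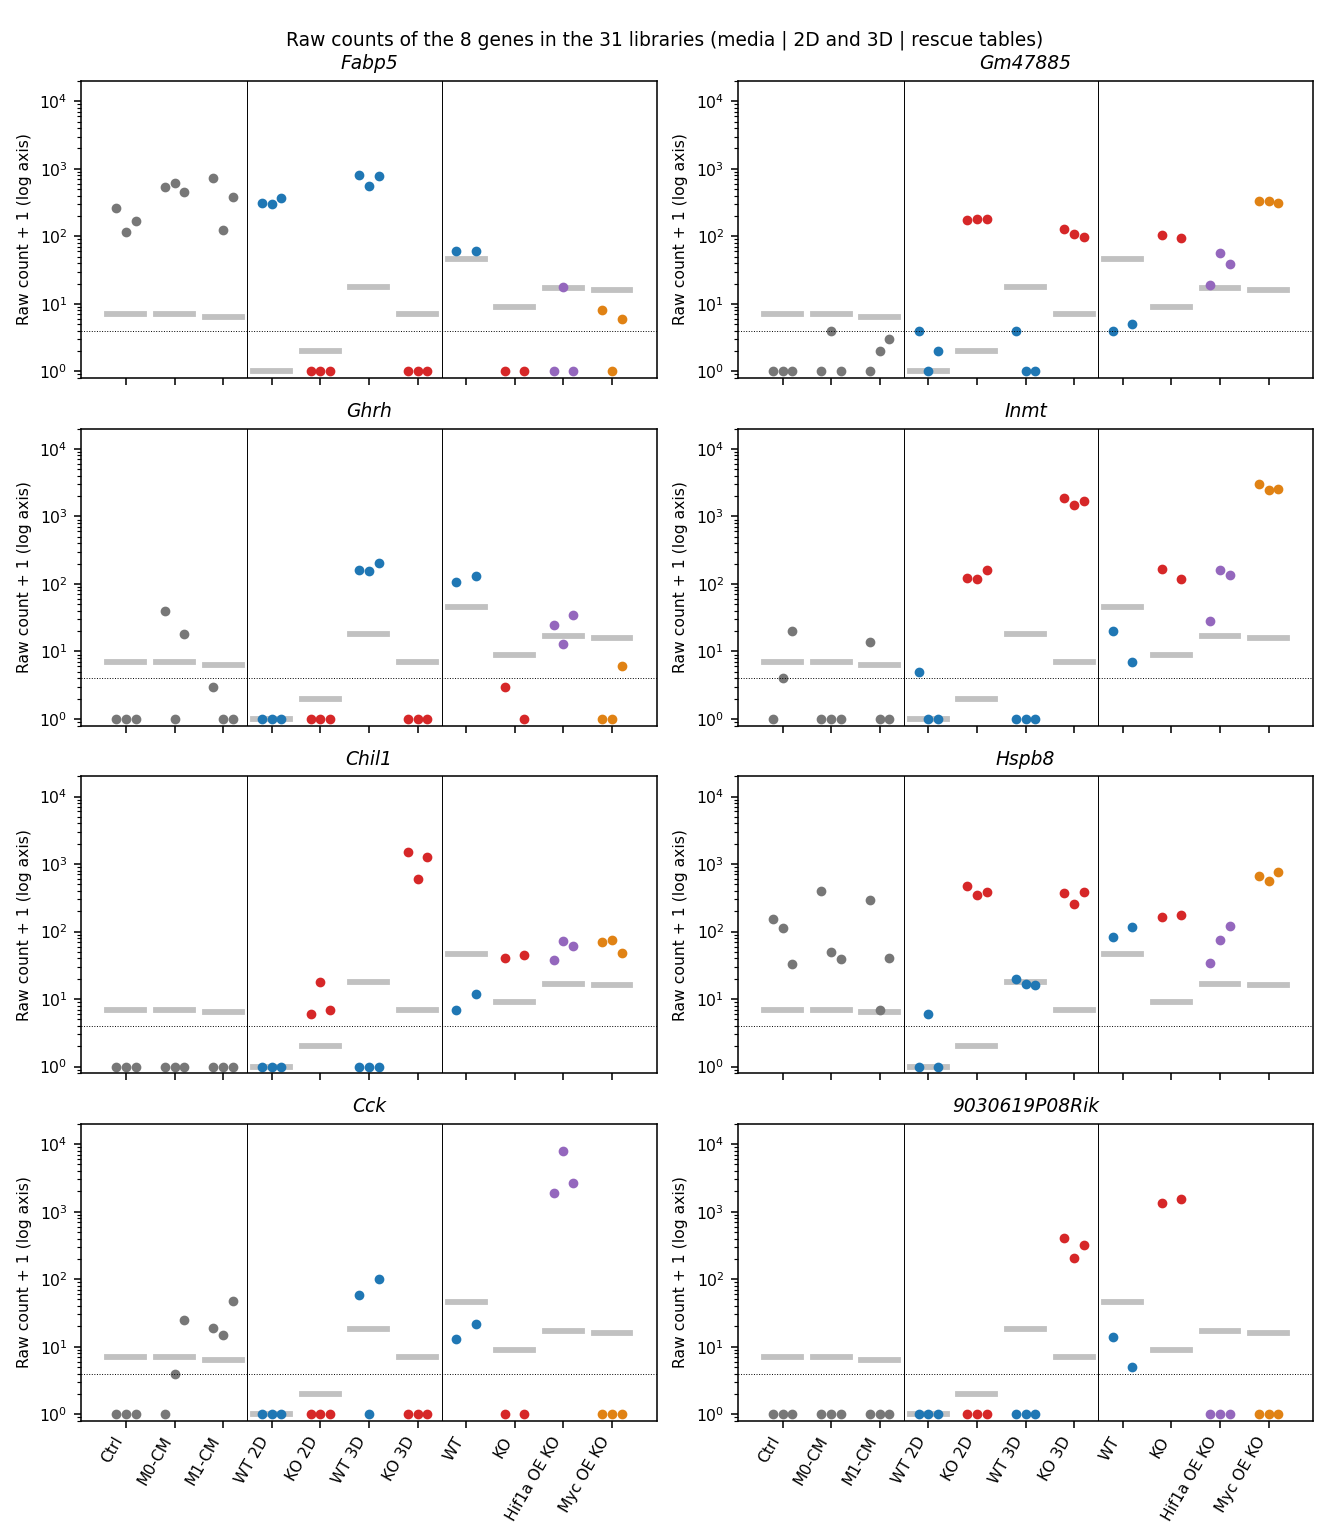
Raw counts plus 1 on a log axis for each of the 8 genes, 1 point per library, by group, with grey bars at the count that 95% of olfactory receptor genes did not exceed (highest library of the group) and a dotted line at 3 counts. Fabp5 is at 0 in every Cxcl5-/- library without an added gene, Cck is highest in the Hif1a line (1919 to 7903 counts) and Inmt in the Myc line (2490 to 2978 counts).

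Side by side, 7 of the 8 genes had the same direction in both 3D experiments with no overlap between the groups, 5 of them higher in Cxcl5-/- (Gm47885, Inmt, Chil1, Hspb8 and 9030619P08Rik) and 2 lower (Fabp5 and Ghrh). The exception was Cck, whose groups overlapped in the 2D/3D experiment. Of 21058 genes tested in both tables, 20.8% were higher and 21.9% lower in Cxcl5-/- in both 3D experiments by the same rule, and the rule that chose the 8 genes used these values, so nothing is read from the count. With 2D included, 5 of 8 held 1 direction (Gm47885, Inmt, Chil1 and Hspb8 higher, Fabp5 lower), beside 4.93% higher and 5.58% lower over all genes. By comparison, 4 genes were higher and 1 lower without overlap in 2D (background 12.9% and 13.1% of genes tested), 5 higher and 2 lower in 3D (25.5% and 28.8%) and 5 higher and 3 lower in the rescue experiment (31.8% and 49.1%, where the WT libraries had the raised level of silent genes). edgeR called 7.02%, 45.0% and 41.9% of all genes tested between genotypes in 2D, in 3D and in the rescue experiment.

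A stricter reading asks for at least 50 counts in every library of 1 group and at most 3 in every library of the other. In 3D, Inmt, Chil1, Gm47885 and 9030619P08Rik were switched on in Cxcl5-/- by this measure (25 genes in all, 0.117%) and Fabp5 and Ghrh were switched off (13 genes, 0.0608%). In the rescue experiment Fabp5 and Ghrh were again off (205 genes, 0.714%), and none of the 8 was on (6 genes, 0.0209%). The limit of 50 counts lay close above the 42.4 to 45 counts of silent genes in the WT libraries there. Off calls of that experiment can therefore include genes near this level, such as Fabp5 with 59 counts, while Ghrh had at least 105. In 2D, Gm47885 was on (3 genes, 0.014%) and Fabp5 off (12 genes, 0.0562%). Only 5 genes of the 21058 (0.0237%) were off in both 3D experiments, namely Fabp5, Ghrh, the growth factor gene Hgf, Fgfbp1 and Gstm5, and only Fabp5 and Hgf (0.0095%) were off in 2D as well. No gene was on in both 3D experiments by this measure, for which the WT libraries of the rescue experiment, with their higher counts of silent genes, set a harder limit.

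**Figure D2:**
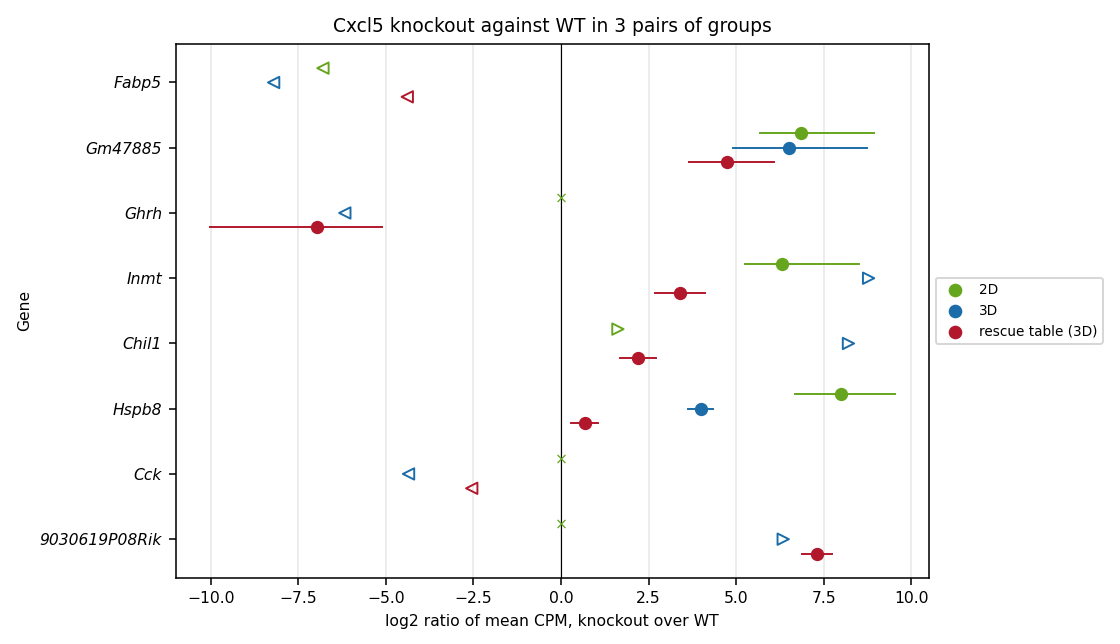
Log2 ratio of mean CPM, Cxcl5-/- over WT, for each gene in 2D, in 3D and in the rescue experiment. Open triangles are bounds against 3 counts per library, crosses mark pairs with no fold, and bars are the SE or the 95% counting interval; Fabp5 lies below 0 throughout and Hspb8 shrinks from 256-fold in 2D to 1.60-fold in the rescue experiment.

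The overexpression lines were each set against the same 2 Cxcl5-/- libraries, so the values of both lines share their reference. Of the 8 genes, 5 did not overlap the parent in the Hif1a line (2 higher and 3 lower; background 30.5% and 26.2%) and 4 in the Myc line (3 higher and 1 lower; background 29.7% and 28.8%). edgeR called 35.5% and 39.6% of all genes in these comparisons. Cck and Ghrh were higher and Gm47885, Hspb8 and 9030619P08Rik lower with Hif1a. Inmt, Gm47885 and Hspb8 were higher and 9030619P08Rik lower with Myc. Cck met the stricter measure as on in the Hif1a line (29 genes, 0.101%) and 9030619P08Rik as off in both (12 genes, 0.0418%, and 26 genes, 0.0905%). None of the 8 was on by this measure in the Myc line (27 genes, 0.094%), since the parent already had reads of those that were higher there.

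**Figure D3:**
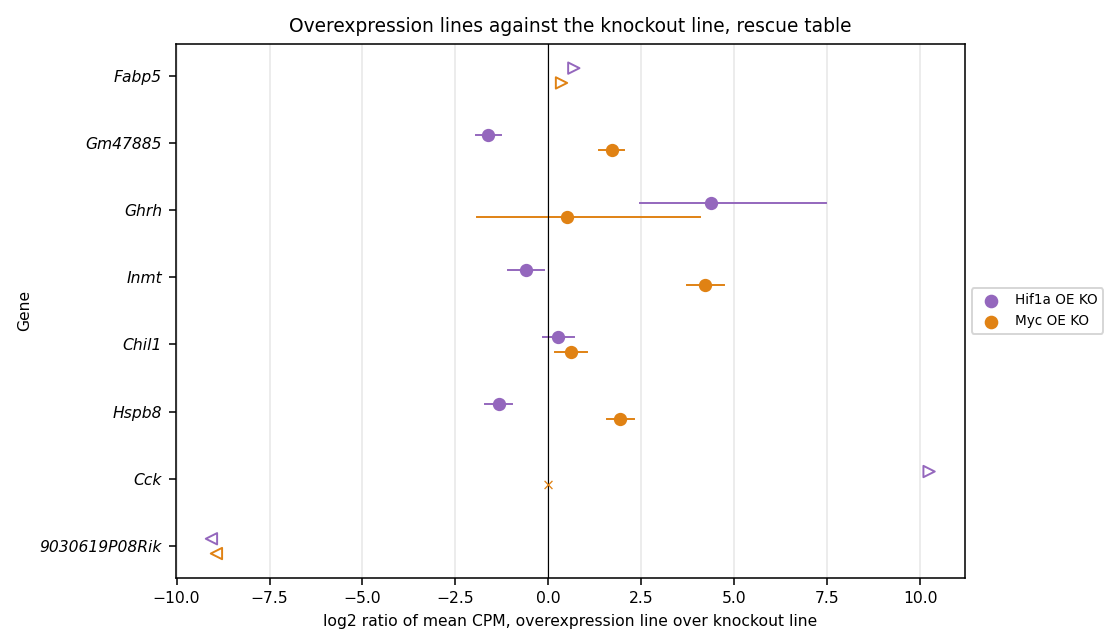
Log2 ratio of mean CPM of the Hif1a and the Myc overexpression lines over their shared Cxcl5-/- parent for each gene, with open triangles for bounds, crosses for no fold and bars for the SE or the 95% counting interval. Gm47885 and Hspb8 lie on opposite sides of 0 in the 2 lines, and Cck stands at least 1211-fold above the parent with Hif1a.

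The macrophage-conditioned media had no part in choosing the genes, and here the members could be tested. Only Fabp5, Hspb8 and Cck had enough counts, and none was called in any of the 3 comparisons (edgeR, adjusted p under 0.05), beside 0.0156%, 0% and 0.0156% of 19207 genes in M1-CM against Ctrl, M0-CM against Ctrl and M1-CM against M0-CM. For M0-CM, 0 genes passed by edgeR, 569 had an unadjusted p under 0.05, and DESeq2 called 22. Fabp5 had 264, 113 and 166 counts in Ctrl, 531, 624 and 452 with M0-CM and 727, 123 and 381 with M1-CM. All M0-CM libraries lay above all Ctrl libraries (background 5.24%), and the M1-CM libraries overlapped both. Its log2 fold change was 1.59 (SE 0.53, adjusted p = 1, edgeR) for M0-CM and 1.31 (SE 0.527, adjusted p = 0.965, edgeR) for M1-CM, each over Ctrl.

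Cck was at 0 in the 3 Ctrl libraries and had 0, 3 and 24 counts with M0-CM and 18, 14 and 47 with M1-CM. These were low counts, and the M1-CM libraries were all above Ctrl (background 4.46%), at least 10.4-fold. The adjusted p was 0.922 by edgeR and 0.0434 by the DESeq2 Wald test. Cck met the count filter through the M1-CM libraries, the group where it was highest, so neither p-value is read as support. Hspb8 had 155, 111 and 32 counts in Ctrl, 396, 48 and 38 with M0-CM and 292, 6 and 40 with M1-CM, and the groups overlapped (M1-CM over Ctrl log2 fold change 0.31, SE 1.17, edgeR adjusted p = 0.981). The other members were at or near the floor in these WT spheroids. Inmt reached at most 19 counts, Gm47885 3 and Chil1 0, while Ghrh reached 39 in 1 library with M0-CM. For 9030619P08Rik this table was read only at the earlier entry, which was at 0, so the entry that Cxcl5-/- cells gained was not measured here. WT spheroids of this table thus had few or no reads for Inmt, Gm47885 and Chil1, and also few for Ghrh, which WT spheroids of the other tables had. For Hspb8 they reached 5.79 CPM in 1 library with M0-CM. Cxcl5-/- spheroids of the 2D/3D experiment, scaled separately, were at 5.39 ± 0.783 CPM.

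Gm47885 was not alone among the copies of Rpl17, a gene for a protein of the large ribosomal subunit. The genome holds 42 genes at least 90% identical to Gm47885 over 200 bases or more, Rpl17 itself and Ndfip2, a gene that is no Rpl17 pseudogene, included, of which 26 could be tested in the 2D/3D experiment and 28 in the rescue experiment. In 2D, 4 of the 26 were called higher in Cxcl5-/- and 0 lower by edgeR (median log2 fold change 0.02). In 3D the counts were 4 higher and 10 lower (median −0.74), and in the rescue experiment 4 higher and 12 lower of 28 (median −0.92), beside a median of −0.30 over all genes there. Most copies therefore did not share the gain. Of all genes tested in 2D, 3.86% were called higher and 3.17% lower. The shares were 19.7% and 25.3% in 3D, and 17.6% and 24.3% in the rescue experiment.

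The copies whose libraries did not overlap and were higher in Cxcl5-/- in 2D, 3D and the rescue experiment were 4 of 26, or 15.4%, against 21 of 2114 processed pseudogenes (0.993%). Another 3 of the 26 (11.5%) were lower in all of them, Gm10362, Gm10268 and Gm12380, against 114 processed pseudogenes (5.39%). The 26 were taken by their likeness to Gm47885, which was chosen for its gain, and they can share reads with it. They are not independent of it, so nothing is read from the higher share. The 4 higher copies are Gm15795 on chromosome 1, Gm7691 on chromosome 15, Rpl17-ps7 on chromosome 14 and Gm9719 on chromosome 9, named after their values were seen. Gm15795 had 5 to 7 counts in WT and 262 to 297 in Cxcl5-/- in 2D, 0 to 9 and 162 to 221 in 3D, and 21 to 29 and 96 to 109 in the rescue experiment. Gm7691 had 4 to 7 and 162 to 247, then 2 to 5 and 82 to 145, then 3 to 7 and 85 to 95 counts in the same order. Rpl17-ps7 showed the same pattern at lower counts, and Gm9719 a weaker one (log2 fold changes 1.75, 2.26 and 2.94). With Hif1a all 4 were lower than in the parent, by log2 fold changes of −1.33 to −1.86, and with Myc Gm15795, Gm7691 and Rpl17-ps7 were higher, by 1.43 to 1.64.

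Rpl17 itself, with far more reads, did not show this. Its log2 fold changes in Cxcl5-/- over WT were −1.07 in 2D (edgeR adjusted p = 0.127), −0.69 in 3D (0.151) and −0.86 in the rescue experiment (0.226). In the Myc line it was higher than in the parent (log2 fold change 2.66, edgeR adjusted p = 0.0026), as were 17 of the other 27 genes, with 1 lower, Ndfip2. Because these genes share long identical stretches, the split of reads between them depends on how the authors assigned reads that match several places, which the sources used here do not give, and the level of each copy is uncertain.

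**Figure D4:**
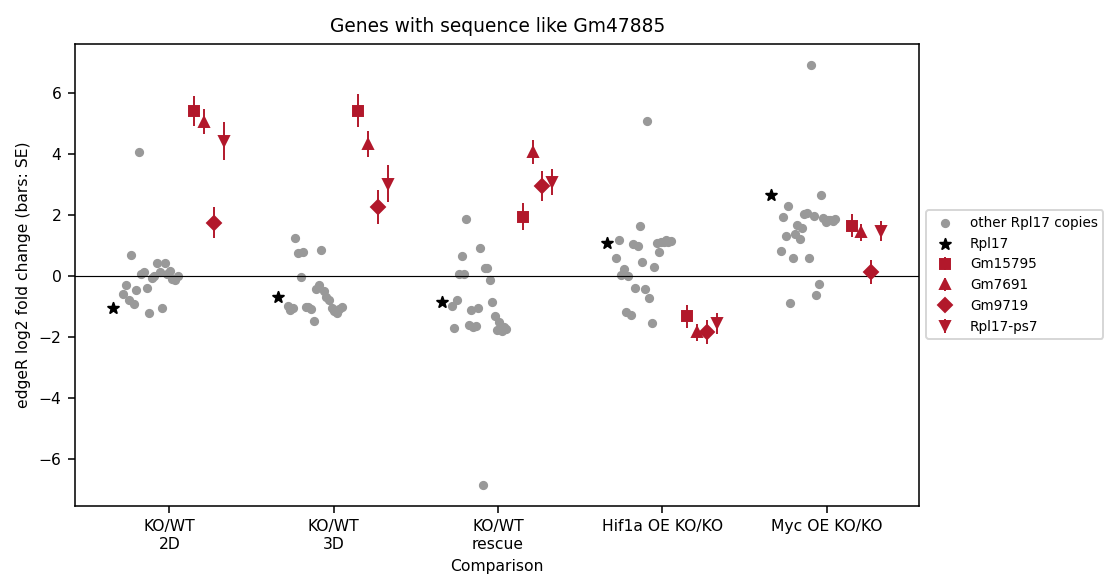
edgeR log2 fold change of each tested gene with a sequence like Rpl17 in 5 comparisons, with Gm15795, Gm7691, Rpl17-ps7 and Gm9719 in red with their SE and Rpl17 as a black star. The red copies lie above 0 in the 3 comparisons of genotype while Rpl17 lies below 0 (−1.07, −0.69 and −0.86).

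The genes next to the 8 members were examined to see whether whole regions moved, taking the 2 nearest tested genes on each side. Of the 32 neighbours, edgeR called 4 in 2D (12.5%, beside 7.02% of all genes), 22 in 3D (68.8%, beside 45.0%) and 14 in the rescue experiment (43.8%, beside 41.9%; of 8 called lower there, 3 had WT counts under the level of silent genes). The median absolute log2 fold change of the neighbours was 0.213, 0.736 and 1.73, and that of all genes 0.203, 0.54 and 0.964. The 14 neighbours of the rescue experiment became 8 without WT replicate 1 and 9 without either Cxcl5-/- library. In 3D, 6 neighbours were higher and 16 lower.

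Pag1, a gene for a membrane adaptor protein 178.9 kb from Fabp5, moved opposite to Fabp5. It had 24 to 51 counts in WT and 216 to 253 in Cxcl5-/- in 2D, 8 to 38 and 176 to 195 in 3D, and 49 to 71 and 245 to 289 in the rescue experiment. The log2 fold changes were 2.70 (SE 0.412; edgeR adjusted p = 0.000863), 2.46 (edgeR adjusted p = 0.000325) and 2.06 (edgeR adjusted p = 6.69e-05). Gm38335, a long noncoding RNA 5.70 kb from Fabp5, was lower in Cxcl5-/- 3D at few counts. It had 7 to 42 counts in WT 3D and 0 to 6 in Cxcl5-/- 3D, and 11 to 19 and 0 in the rescue experiment (edgeR adjusted p = 0.0452 and 0.0364), where the rescue WT counts lay under the 42.4 to 45 of silent genes, while in 2D it did not pass (0 to 12 counts against 0; adjusted p = 0.172).

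Near 9030619P08Rik, 2 neighbours were highest in the same lines as its later entry. Their gaps were measured from the earlier entry, since the later one had no position in the annotation used. Gm34531, a pseudogene 42.7 kb away, had 26 to 35 counts in rescue Cxcl5-/- and 0 in each WT, Hif1a and Myc library of that experiment (edgeR adjusted p = 0.0288, 0.0137 and 0.013). In Cxcl5-/- 3D of the 2D/3D experiment Gm34531 had only 0 to 9 counts, around the 6 of silent genes there. Ly6f, a member of the Ly6 family of membrane-anchored surface proteins 155.4 kb away, had 12 to 34 counts in Cxcl5-/- 3D against 0 in WT (edgeR adjusted p = 0.00507) and 41 to 63 in rescue Cxcl5-/- against 5 in each WT library (adjusted p = 0.107). Aqp1, a water channel gene 161.4 kb from Inmt, went against Inmt between genotypes in the rescue experiment (log2 fold change −3.37, edgeR adjusted p = 1.13e-06), and was higher in both the Hif1a line (3.68, edgeR adjusted p = 6.42e-07) and the Myc line (5.49, edgeR adjusted p = 4.99e-08). Trak1, a motor adaptor gene next to Cck, was higher in Cxcl5-/- in 3D (1.06) and in the rescue experiment (1.40).

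**Figure D5:**
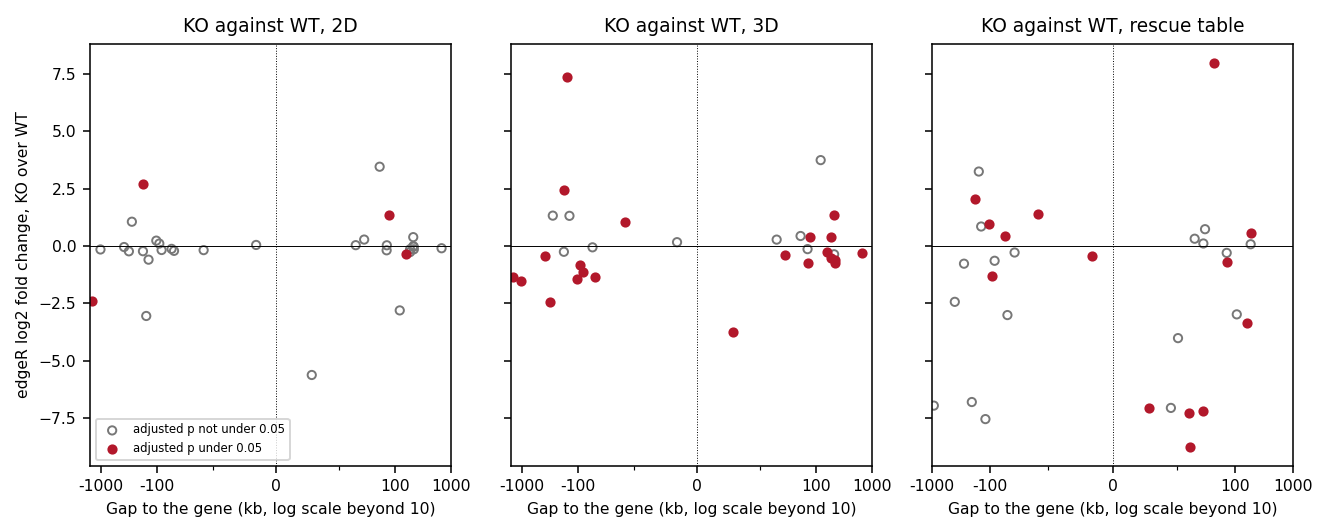
edgeR log2 fold change of the 2 nearest tested genes on each side of each member against the gap between the genes in kb, for Cxcl5-/- over WT in 2D, in 3D and in the rescue experiment, with filled red points for adjusted p under 0.05. In 2D 4 of 32 neighbours passed, among them Pag1, and in 3D 22 of 32.

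Relatives of the members by family or pathway were taken from lists. Over all genes, edgeR called 3.86% higher and 3.17% lower in Cxcl5-/- in 2D, 19.7% and 25.3% in 3D, and 17.6% and 24.3% in the rescue experiment, so the counts of a list say little where they lie near these shares. Of all genes called lower in the rescue experiment, 31.1% had WT counts at or under the level of silent genes in both WT libraries. Of 13 fatty acid binding and related proteins other than Fabp5, 5 could be tested in the 2D/3D experiment and 0 rose and 2 fell in 2D, and 0 rose and 3 fell in 3D (medians −1.32 and −1.29, all genes −0.02 and −0.04). The rescue experiment gave 1 of 6 that rose and 3 that fell (median −1.30, all genes −0.30). Fabp4, a fatty acid carrier best known from adipocytes and macrophages, fell with Fabp5 in spheroids. It was at 15.9 ± 2.91 CPM in WT 3D and 0.98 ± 0.536 in Cxcl5-/- 3D (n = 3 each; log2 fold change −4.00, edgeR adjusted p = 2.06e-06), and at 12.3 ± 4.08 and 1.66 ± 0.148 in the rescue experiment (n = 2 each; −2.89, edgeR adjusted p = 0.000198). Unlike Fabp5, it was at 31.2 ± 4.33 CPM in the Myc line, a log2 fold change of 4.23 (edgeR adjusted p = 9.11e-06). Crabp2, which carries retinoic acid, fell in 2D, 3D and the rescue experiment (−1.87, −1.72 and −1.79; edgeR adjusted p = 0.000863, 0.000275 and 9.41e-05). Of the 14 lipid uptake and PPAR delta partners of Fabp5, 2 rose and 2 fell of 12 tested in 2D, 4 and 4 in 3D, and 3 and 5 of 14 in the rescue experiment.

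Among the small heat shock proteins and BAG3 partners, the family of Hspb8, 1 rose and 0 fell of 11 in 2D, 1 rose and 5 fell in 3D, and 1 rose and 3 fell of 12 in the rescue experiment, beside 45.0% and 41.9% of all genes called in the last pair of comparisons. Cryab, the αB-crystallin chaperone, fell where Hspb8 was higher, by log2 fold changes of −1.59 in 3D (edgeR adjusted p = 4.62e-07) and −1.40 in the rescue experiment (edgeR adjusted p = 0.000326). Of the methyltransferases related to Inmt by their small substrates, 2 of 6 rose and 0 fell in 3D and in the rescue experiment; Nnmt, which methylates nicotinamide, was at 38.6 ± 0.638 CPM in rescue Cxcl5-/- against 12.5 ± 1.59 in WT (log2 fold change 1.63, edgeR adjusted p = 0.000184) and fell in the Hif1a line (−1.80, edgeR adjusted p = 3.37e-05).

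Of the chitinase family other than Chil1, only 2 of 8 could be tested in the 2D/3D experiment, and 1 fell and 0 rose in 2D and in 3D. Il13ra2, a receptor gene held in that list because Chil1 protein binds it, had 2417 and 2582 counts in rescue Cxcl5-/- and 193 and 237 in WT (log2 fold change 3.45, edgeR adjusted p = 2.08e-06), and it was nearly lost in both overexpression lines (−6.60 and −7.12, edgeR adjusted p = 4.86e-08 and 2.69e-08). In 2D it was lower in Cxcl5-/- (−1.93, edgeR adjusted p = 0.00028), the opposite direction. In 3D of that experiment it was not called higher either, so its gain was called in the rescue experiment only. Of the Ly6 and uPAR domain genes, 0 of 11 passed in 2D, 1 rose and 7 fell in 3D and 0 rose and 6 fell of 14 in the rescue experiment, where 1 of the 6, Psca, had WT counts under the level of silent genes. Of 16 neuropeptide and gut hormone genes other than Ghrh and Cck, 0 could be tested in the 2D/3D experiment, and of 4 tested in the rescue experiment 0 passed. The endocrine peptide genes around Ghrh and Cck were thus silent or nearly so in these cells, and the enzymes and granins that process such peptides gave 0 higher and 1 lower of 4 in 2D, 1 and 2 in 3D and 1 and 2 of 9 in the rescue experiment. Those lower there were Pcsk1 (0.538 CPM in WT), under the level of silent genes, and Pcsk2 (0.929 CPM in WT), near it. Of 7 receptors of Cck, Ghrh and related peptides, 1 could be tested in the 2D/3D experiment and did not pass, and 0 of 5 were higher in the rescue experiment; the 3 called lower, Cckar, Ghrhr and Adcyap1r1, had WT counts under the level of silent genes there, so no fall is read from them.

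The genes whose levels were most like each member's were ranked by the smaller of the Pearson correlations of log2 CPM over the 12 libraries of the 2D/3D experiment and the 10 of the rescue experiment. These correlations share libraries and depth and describe likeness only. The lists depended on the measure, since with Spearman correlation 7 of the 27 places were held by the same genes. Those were genes listed for Gm47885, Ghrh and the earlier entry of 9030619P08Rik. No gene listed for Fabp5, Inmt, Chil1, Hspb8, Cck or the later entry stayed. Nearest to Fabp5 were Tmem200a (r = 0.952 and 0.925), Manea (0.938 and 0.895) and Vim (0.879 and 0.893). Tmem200a had 25 to 28 counts in rescue WT, under the 42.4 to 45 counts of silent genes there. Manea, an enzyme that trims mannose chains in the Golgi, had 168 to 344 counts in WT 2D and 0 in Cxcl5-/- 2D. In 3D it had 273 to 455 counts in WT and 0 to 50 in Cxcl5-/-, so the loss was not complete in every library. In the rescue experiment Manea had 314 to 372 against 0 to 3. Nearest to Ghrh were Pkp1 (0.976 and 0.970), Pim1 and Rbpj. Pkp1 had 20 to 23 counts in rescue WT, also under the level of silent genes.

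Nearest to Inmt were Ogn (r = 0.973 and 0.981), 2310057J18Rik and Crebl2, and nearest to Hspb8 were Serpinf1 (0.907 and 0.975), Ogn and D830013O20Rik. Ogn, a small proteoglycan of the extracellular matrix, is shared by both lists; it had 1489 to 2403 counts in WT 2D, 9086 to 10243 in Cxcl5-/- 2D and 24566 to 30501 in the Myc line. Nearest to Gm47885 were Gm7691 (0.984 and 0.984) and Gm15795 (0.989 and 0.940), the Rpl17 copies described above, and Ak3. Nearest to Chil1 were Pomk, Nat8f4 and Pabpn1l.

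Nearest to 9030619P08Rik by its later entry were Igf1 (r = 0.983 and 0.985), Gm14893 and Gm48197. Igf1, a growth factor gene, had 0 to 3 counts in WT 3D and 156 to 234 in Cxcl5-/- 3D, 61 to 69 and 835 to 1055 in the rescue experiment, and 26 to 43 and 31 to 53 in the Hif1a and Myc lines. Cck and the earlier entry of 9030619P08Rik had enough counts in the rescue experiment only. There Cck was most like Rhbdl2 (r = 0.995 over 10 libraries), Luzp4 and Vmn1r112, the first of which had 830 to 1125 counts in the Hif1a line and 317 to 337 in the parent. In 2D, where Cck was at 0, Rhbdl2 had 1259 to 1597 counts in WT and 729 to 856 in Cxcl5-/-. The earlier entry was most like Gm36107, Gm48329 and the neighbour Gm34531 (0.999).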

How the data were processed

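The authors prepared stranded total RNA libraries (TruSeq), sequenced read pairs on a NovaSeq, aligned them to GRCm38 (mm10) with HISAT2 and deposited raw gene counts made with StringTie, in 3 tables and not normalized. The annotation release and the handling of reads that match several places are not given in the sources used here. The authors tested with DESeq2. Libraries were grouped by their labels, and total counts ranged from 41542533 to 78498230.

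The 8 genes and all gene lists were chosen with earlier results of these data known. In each table, genes passing edgeR's filterByExpr (19207, 21367 and 28730) were fitted with edgeR 4.0.16 (R 4.3.3; TMM, quasi-likelihood test, all groups in 1 fit) and adjusted by Benjamini-Hochberg over all genes tested; calls had an adjusted p under 0.05. CPM are TMM-scaled. A group at 0 in every library gave a fold only as a bound against 3 counts per library, and a group total of 1 to 10 counts gave a ratio with a 95% exact interval of counting error. Groups with at most 3 counts in every library on both sides got no fold. Tests were also run on simulated data.

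Named genes were the 8 members, Cxcl5, Hif1a and Myc, the 3 genes most like each member, and neighbours or listed relatives that passed with an absolute log2 fold change above 1, at most 2 per list and comparison. Vim and the genes switched off beside members, Rpl17 and its copies, marker genes, listed genes under the level of silent genes and Gm6166 were named outside or beside that rule, after values were seen. Near copies were found with blastn 2.17.0 in GENCODE vM21 transcripts (at least 90% identity over 200 bases), and promoters came from RefSeq (GRCm38.p6). The level of silent genes from olfactory receptor genes was added after seeing the data. Other settings tried were DESeq2 1.42.0 (Wald test), scaling by library totals or by DESeq2's size factors, a minimum of 10 counts in every library or no filter at all, fits of only the groups compared, a replicate block, leaving out each library, Spearman correlation, and, added after seeing the data, entries of 1 symbol summed. Deviations of replicates were compared pairwise, and no pair agreed within sampling noise. Other tools were limma 3.58.1, numpy 2.4.6, pandas 2.3.3 and matplotlib 3.10.9.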

Additional observations from a re-analysis of the deposited data

Results flagged for a closer look

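Gm47885 and Hspb8 moved in opposite directions in the overexpression lines, with every library of the Hif1a line below and every library of the Myc line above the shared Cxcl5-/- parent. For Gm47885 the log2 ratio of means was −1.62 with Hif1a and 1.70 with Myc. For Hspb8 it was −1.34 and 1.93. Both comparisons use the same 2 parent libraries, and the difference between the lines was not tested.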

How the results depend on the processing

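Of the log2 fold changes of members outside the leave-one-out fits, 204 values kept direction and call, 7 moved, 1 became significant and 1 reversed. The cause was not tested. These values include the comparisons of genotype and overexpression that chose the genes, so their calls there are not read as support. With the DESeq2 Wald test, 1 member (Cck) was called in M1-CM against Ctrl, where edgeR called 0. Nothing is read from that call, since Cck met the count filter through its M1-CM libraries. The genes called were 105 for M1-CM against Ctrl (edgeR 3), 22 for M0-CM against Ctrl (0) and 34 for M1-CM against M0-CM (3). For M0-CM against Ctrl, library totals gave 1 gene and only the groups compared gave 2. A minimum of 10 counts gave 1 gene for M1-CM against M0-CM, 2 neighbours in 2D (4), 9 in the rescue genotype comparison (14), where only the groups compared gave 22, and 0 Rpl17 copies in 2D (4), since fewer genes were tested. Under the replicate block both M1-CM comparisons called 1 gene, and Hspb8 in M1-CM against Ctrl turned to −0.49 (0.31 without it). Whether the replicate numbers pair the libraries was not tested. The mean correlation of same-numbered deviations was 0.0369, 0.0247 and 0.00408 in the media, 2D/3D and rescue tables. In the same order, 4 of 9, 8 of 12 and 5 of 10 libraries were most like their own number. The block moved no other count by over 1.5 times and gave 1553, 9735 and 10803 calls for genotype in 2D, 3D and rescue against 1501, 9615 and 12048.

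Leaving out each library in turn, genes called ranged from 1 to 5 for M1-CM against Ctrl, 0 to 2 for M0-CM against Ctrl, 1 to 6 for M1-CM against M0-CM and 7489 to 13620 for the rescue genotype comparison, where leaving out any of its 4 libraries gave at most 7908 (12048 with all). Called neighbours ranged from 8 to 17 in the rescue genotype comparison and 7 to 15 with Myc (low without either Cxcl5-/- library), and called relatives from 5 to 12 in 2D (at most 6 without replicates 1 or 2 of either group) and 21 to 43 in the rescue genotype comparison (21 without Cxcl5-/- replicate 1). Log2 fold changes that reversed were those of Hspb8 (M1-CM against Ctrl −1.78 to 0.91, with −0.08 without Ctrl replicate 3; M0-CM against Ctrl −1.04 to 1.29; M1-CM against M0-CM −2.48 to 1.35, with 0.17 without M1-CM replicate 2) and of Fabp5 in M1-CM against M0-CM (−0.86 to 0.11). The 7 members that held direction in both 3D experiments became 8 without the WT 3D library that had no Cck reads. With 2 libraries per genotype in the rescue experiment and 3 elsewhere, small changes of low genes were beyond the depth.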
